A study of Homo sapiens with 6 samples.

Results

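The genes examined here encode the core of TGF-beta signalling: the ligand TGFB1, the receptors TGFBR1, TGFBR2 and TGFBR3, the signal transducers SMAD2, SMAD3 and SMAD4, the inhibitory SMAD7, and the corepressors SKI and SKIL. Members were all probe sets whose platform annotation gave a single symbol from these 10 genes, which found 33 of 54613 probe sets other than controls and all 10 of 19775 genes. A probe set is a group of short oligonucleotide probes that together report 1 transcript region. RNA was measured on 6 one-colour Affymetrix arrays in KOPTK1, an established human line of T-cell acute lymphoblastic leukaemia. The cells were cultured in RPMI-1640 medium with fetal calf serum for 48 h with vehicle (3 arrays) or with 1 µM PD0332991 (3 arrays), an inhibitor of CDK4 and CDK6 also known as palbociclib. The submitters describe biological triplicates, all groups are of this 1 line, and the labels name no added TGF-beta and no receptor inhibitor in either group. How the triplicates were kept apart is not given, so p-values measure the spread between these samples.

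TGF-beta binds the type II receptor TGFBR2, which recruits and phosphorylates the type I receptor TGFBR1, and TGFBR3 (betaglycan) presents ligand to them. TGFBR1 phosphorylates SMAD2 and SMAD3, which join SMAD4 and enter the nucleus to control transcription. SMAD7, itself induced by the pathway, blocks the receptors, and SKI and SKIL bind SMAD complexes and repress their targets. In lymphocytes TGF-beta restrains growth, and cyclin-dependent kinases including CDK4 can phosphorylate SMAD3.

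After PD0332991, SMAD4 and SMAD3 RNA was lower and SMAD7 RNA was higher on the brightest probe set of each gene, and the other 7 genes did not pass. SMAD4 fell 1.42-fold, SMAD3 fell 1.27-fold and SMAD7 rose 1.59-fold, with standard errors of 0.06, 0.09 and 0.18 on the log2 scale and 3 arrays per group. The test was limma on log2(intensity + 16) over all genes, with Benjamini-Hochberg adjustment and a threshold of 0.05, and folds refer to that scale. The 3 of 10 genes that passed compare with 29.3% of all 19775 genes in the same test, so their share lies near that of all genes. All 10 lay above the median intensity of all genes. In a fit of the genes above that median alone, 62.3% of genes passed, and of the 10, 4 were higher and 4 lower. The median log2 fold change was 0.01 over the 10 genes and 0.01 over all genes. Counting all 33 probe sets in a fit of all probe sets, 7 were lower, 2 were higher and 24 did not pass, against 10.2% lower and 10.7% higher, together 21.0%, among all 54613. The groups did not overlap for 6 of the 10 genes, 3 higher and 3 lower, against 43.0% of all genes, 23.0% higher and 20.0% lower.

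**Figure D1:**
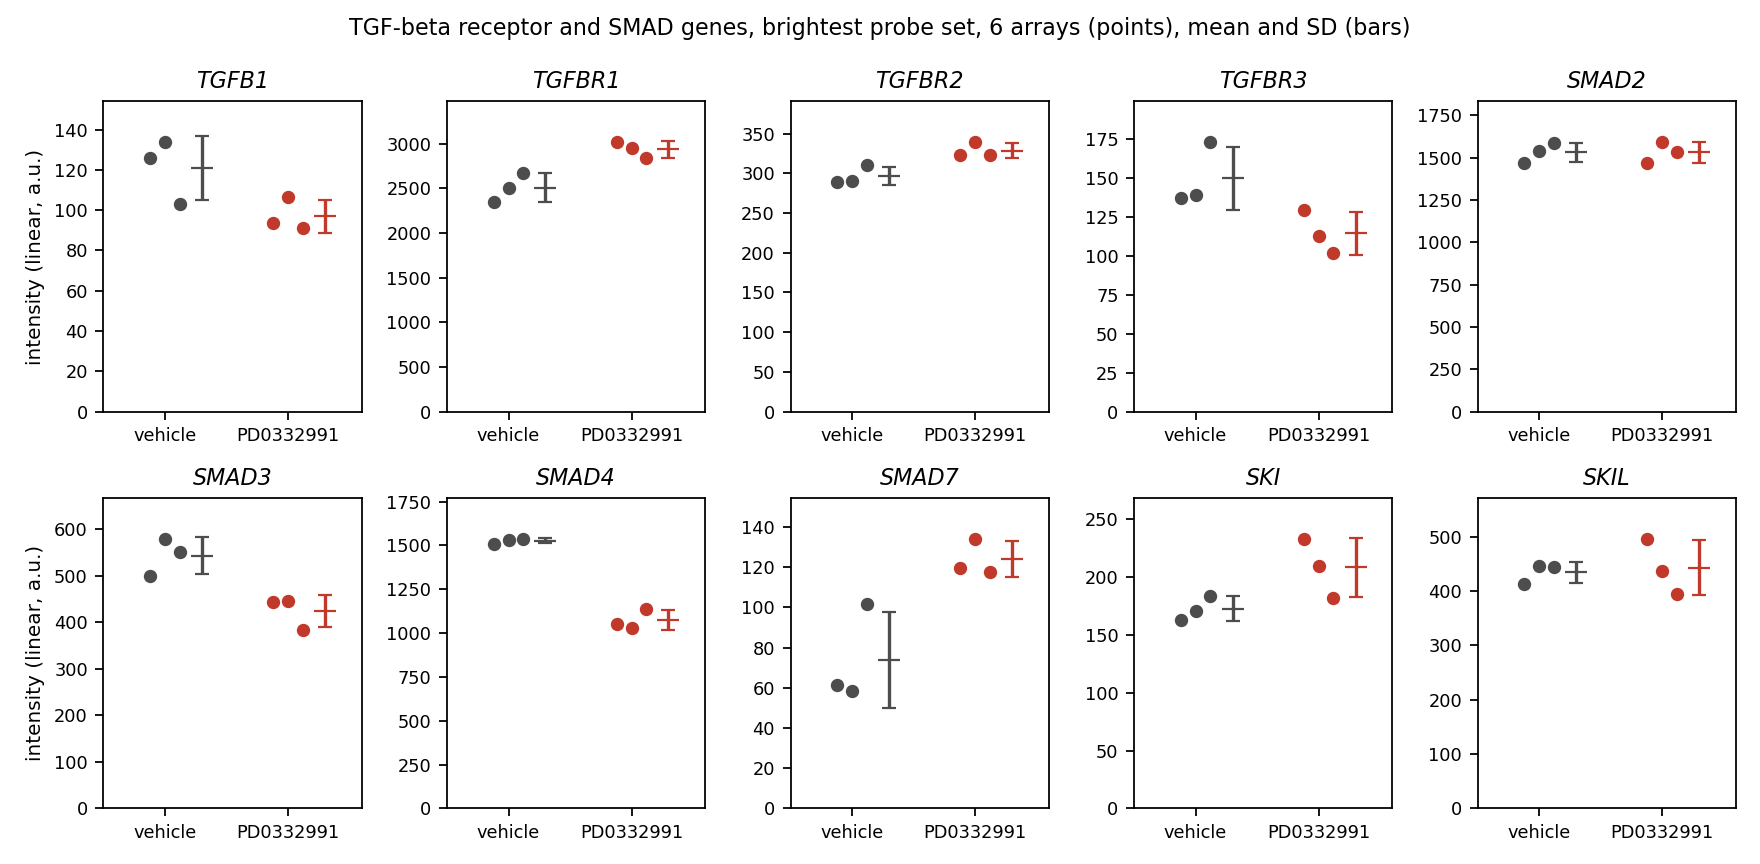
Intensity (linear scale, arbitrary units) of the brightest probe set of each of the 10 genes on 3 vehicle arrays (grey) and 3 PD0332991 arrays (red), with mean and SD beside the points. The SMAD4 groups lie apart, at 1511 to 1539 and 1031 to 1136.5, while those of SMAD2 and SKIL overlap.

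Each array held 54675 probe sets, with medians between 49.1 and 54.3, and 25.5% of all values lay below 16, the pseudocount. No detection calls come with the values, so a dim probe set cannot be told from background, and members are not ranked by level. Markers of cell types were set against the median of all genes only as a coarse check of the label, since probe sets differ in brightness for the same RNA level. In bulk samples such as these, fewer cells with an RNA and less RNA per cell cannot be told apart. Of 11 measured T-cell markers, 10 lay above the median of all genes (CD4 did not), and 6 were higher after PD0332991, with a summed intensity of 23191 to 25392 with vehicle and 28637 to 30098 with PD0332991. None of 4 myeloid, 5 fibroblast or 4 epithelial markers lay above that median and none passed, whereas CD79A of 3 B-cell markers and PECAM1 of 3 endothelial markers lay above it and were higher. The summed intensity of the B-cell markers was 333 to 390.3 with vehicle and 565 to 718 with PD0332991. Of these, CD79A went from a mean of 275 to 543, MS4A1 from 49.5 to 38.7 and CD79B from 40.1 to 43.8. MS4A1 and CD79B did not pass. The summed intensity of the endothelial markers was 1270.4 to 1377 with vehicle and 1899.8 to 1990.1 with PD0332991, with CDH5 and VWF below the pseudocount at means of 5.62 and 12.6. The part of these shifts in the results was not tested.

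The sequences before the start sites of the 3 genes that passed are shown because these genes moved in different directions. They are the 250 bases upstream of each gene's outermost start in RefSeq (GRCh38.p14), 5′ to 3′ on the gene's strand. Capitals mark the GC box GGGCGG, bound by SP1-type factors, and the SMAD box CAGAC, each on either strand.
SMAD4, chr18:51029963-51030212, plus strand: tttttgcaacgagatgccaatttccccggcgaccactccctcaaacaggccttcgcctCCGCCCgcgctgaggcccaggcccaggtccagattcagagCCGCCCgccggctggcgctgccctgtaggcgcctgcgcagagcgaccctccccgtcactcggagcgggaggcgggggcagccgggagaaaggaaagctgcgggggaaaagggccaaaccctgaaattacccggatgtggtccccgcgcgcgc
SMAD3, chr15:67065352-67065601, plus strand: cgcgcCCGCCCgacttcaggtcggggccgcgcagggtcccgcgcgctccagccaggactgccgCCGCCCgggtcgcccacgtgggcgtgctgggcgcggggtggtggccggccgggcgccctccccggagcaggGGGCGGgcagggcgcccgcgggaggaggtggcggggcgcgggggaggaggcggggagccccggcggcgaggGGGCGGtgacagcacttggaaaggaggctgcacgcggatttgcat
SMAD7, chr18:48950966-48951215, minus strand: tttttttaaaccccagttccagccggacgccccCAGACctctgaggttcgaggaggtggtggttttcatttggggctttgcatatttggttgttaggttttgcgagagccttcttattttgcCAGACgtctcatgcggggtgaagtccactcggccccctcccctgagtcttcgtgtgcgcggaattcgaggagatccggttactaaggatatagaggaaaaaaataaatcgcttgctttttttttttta
SMAD3 carried 4 GC boxes and SMAD4 carried 2, with a GC content of 80.8% and 68.4%, against a median of 58% over the 35116 upstream windows of the same length in the table. SMAD7 had a GC content of 48%, no GC box in this window and 2 SMAD boxes, at 217 to 213 and 128 to 124 bases before the start. Among the 8 members with a window at their outermost start, 5 held the GC box, found in 42.6% of all windows, and SMAD7 and SKIL held the SMAD box, found in 38% of all windows. None of the 8 held the palindromic SMAD element GTCTAGAC (0.182% of all windows) or the E2F site forms TTTGGCGC, TTTCGCGC and TTTCCCGC (0.55%, 0.439% and 1.39%). All motifs were searched on both strands, the GC box, SMAD box and other motifs have no letters that overlap in the windows shown, and a match is a description of the letters only. Other starts of these genes and the bases after the start were not searched. A motif or GC content missing from a window may therefore be present elsewhere at the same gene.

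Gene positions below are those of RefSeq on GRCh38.p14. The ligand gene TGFB1 (chr19:41330323-41353922) had negative log2 fold changes on both probe sets, neither of which passed. On its brightest probe set, 203085_s_at, the vehicle arrays read 126, 134 and 103 and the PD0332991 arrays 93.7, 106 and 91.0. The groups overlapped through vehicle replicate 3, the lowest of its group, and the log2 fold change was −0.27 (SE 0.11, limma adjusted p = 0.111). Without vehicle replicate 3 it was −0.37 (limma adjusted p = 0.0294). The second probe set, 203084_at, read 101, 114 and 83.5 with vehicle and 80.8, 70.0 and 54.3 with PD0332991. These groups did not overlap, and the log2 fold change was −0.46 (limma adjusted p = 0.0858).

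The type I receptor gene TGFBR1 (chr9:99103647-99154192) was slightly brighter on every PD0332991 array, short of the threshold. Probe set 224793_s_at read 2345, 2508 and 2678 with vehicle and 3023, 2958 and 2837 with PD0332991. All 3 treated arrays lay above all vehicle arrays, by a log2 change of 0.23 (95% interval 0.06 to 0.40, limma adjusted p = 0.0546). This call turned on the setting: TGFBR1 passed under 8 of 18 alternatives, with adjusted p between 0.0093 and 0.154 over all of them by limma, and at 0.0342 without vehicle replicate 3. Its second probe set, 236561_at, read 241, 266 and 229.8 with vehicle and 443, 285 and 288 with PD0332991, where PD0332991 replicate 1 stood above the others, and had a log2 fold change of 0.41 (limma adjusted p = 0.166). The third, 206943_at, had a log2 fold change of 0.08 (limma adjusted p = 0.745) at intensities of 27.1 to 42.2.

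TGFBR2 (chr3:30606356-30694142), the ligand-binding type II receptor gene, read 289, 291 and 309.8 with vehicle and 323, 339.6 and 323 with PD0332991 on probe set 208944_at. The groups did not overlap, but the difference was small, with a log2 change of 0.14 (95% interval 1e-04 to 0.28, limma adjusted p = 0.128). Its dimmer probe set, 207334_s_at, had a log2 fold change of 0.23 (limma adjusted p = 0.266). TGFBR3 (chr1:91680343-91906002), the coreceptor gene, leaned the other way, with 137, 139 and 173 against 129, 113 and 102 on probe set 226625_at. All treated arrays lay below all vehicle arrays, the highest of which was vehicle replicate 3, with a log2 change of −0.34 (SE 0.12, limma adjusted p = 0.0796). The other probe set of TGFBR3, 204731_at, was at −0.24 (limma adjusted p = 0.291). The 3 receptor genes differed in sign: TGFBR1 and TGFBR2 had positive and TGFBR3 negative log2 fold changes on all 7 of their probe sets. None of these passed, so neither a joint nor an opposed change of the receptor genes was shown.

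SMAD4 (chr18:51030213-51085042), the partner shared by the TGF-beta and BMP branches, had the lowest adjusted p of the 10 genes. Its brightest probe set, 202527_s_at, read 1511, 1529 and 1539 with vehicle and 1052, 1031 and 1136.5 with PD0332991. The 3 vehicle arrays lay close together and above all treated ones, and the log2 fold change was −0.50 (SE 0.06, limma adjusted p = 0.0016). Probe set 235725_at read 780.2, 829 and 838 with vehicle against 615, 619.7 and 574, a log2 fold change of −0.43 (limma adjusted p = 0.00706). Probe set 1565703_at read 198, 209 and 206 against 150.04, 116 and 154, at −0.51 (limma adjusted p = 0.0219), and lost its call without vehicle replicate 1, 2 or 3 (adjusted p 0.0647, 0.0781 and 0.0578). The other 2 were not called, 202526_at at −0.05 (limma adjusted p = 0.717) and 1565702_at at −0.05 (limma adjusted p = 0.891), and the latter read 7.23 to 19.6, near or below the pseudocount. SMAD4 passed under all 18 alternatives run, at −0.31 (limma adjusted p = 0.0263) for the mean of its 5 probe sets.

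SMAD2 (chr18:47808957-47930872), a direct substrate of TGFBR1, gave different answers on different probe sets. The brightest, 203075_at, read 1471, 1541 and 1585 with vehicle and 1471, 1594 and 1537 with PD0332991, so the groups overlapped fully, at a log2 change of 0.0015 (95% interval −0.15 to 0.15, limma adjusted p = 0.991). Probe set 226563_at instead read 749.7, 796 and 820.0 with vehicle and 539, 491 and 497 with PD0332991. There every treated array lay below every vehicle array, at −0.62 (SE 0.07, limma adjusted p = 0.00218). Probe set 235598_at was lower as well, with 133, 133 and 144 against 91.7, 93.8 and 108, at −0.42 (limma adjusted p = 0.0144), a call lost without PD0332991 replicate 2 (adjusted p = 0.0508). The remaining 3 were at −0.16, −0.16 and −0.30 without passing (limma adjusted p 0.146, 0.191 and 0.249). The mean of all 6 SMAD2 probe sets was −0.28 (limma adjusted p = 0.0226).

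SMAD3 (chr15:67065602-67195169), the other direct substrate, fell on its brightest probe set. Probe set 218284_at read 500.3, 580.0 and 550.4 with vehicle and 443, 446 and 384 with PD0332991, with no overlap and a log2 change of −0.35 (SE 0.09, limma adjusted p = 0.030). Its call was lost without vehicle replicate 2 (adjusted p = 0.0982) or 3 (0.0734) and without PD0332991 replicate 1 (0.0563), 2 (0.0524) or 3 (0.0793). Probe set 205398_s_at went the other way, with 237, 209 and 248 against 282, 274 and 282. Its groups did not overlap either, and its log2 fold change was 0.26 (SE 0.08, limma adjusted p = 0.0704). Probe set 205396_at was at −0.28 (limma adjusted p = 0.389), and 205397_x_at read 1.00 to 13.3, below the pseudocount. The mean of the 4 SMAD3 probe sets was −0.07 (limma adjusted p = 0.718).

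**Figure D2:**
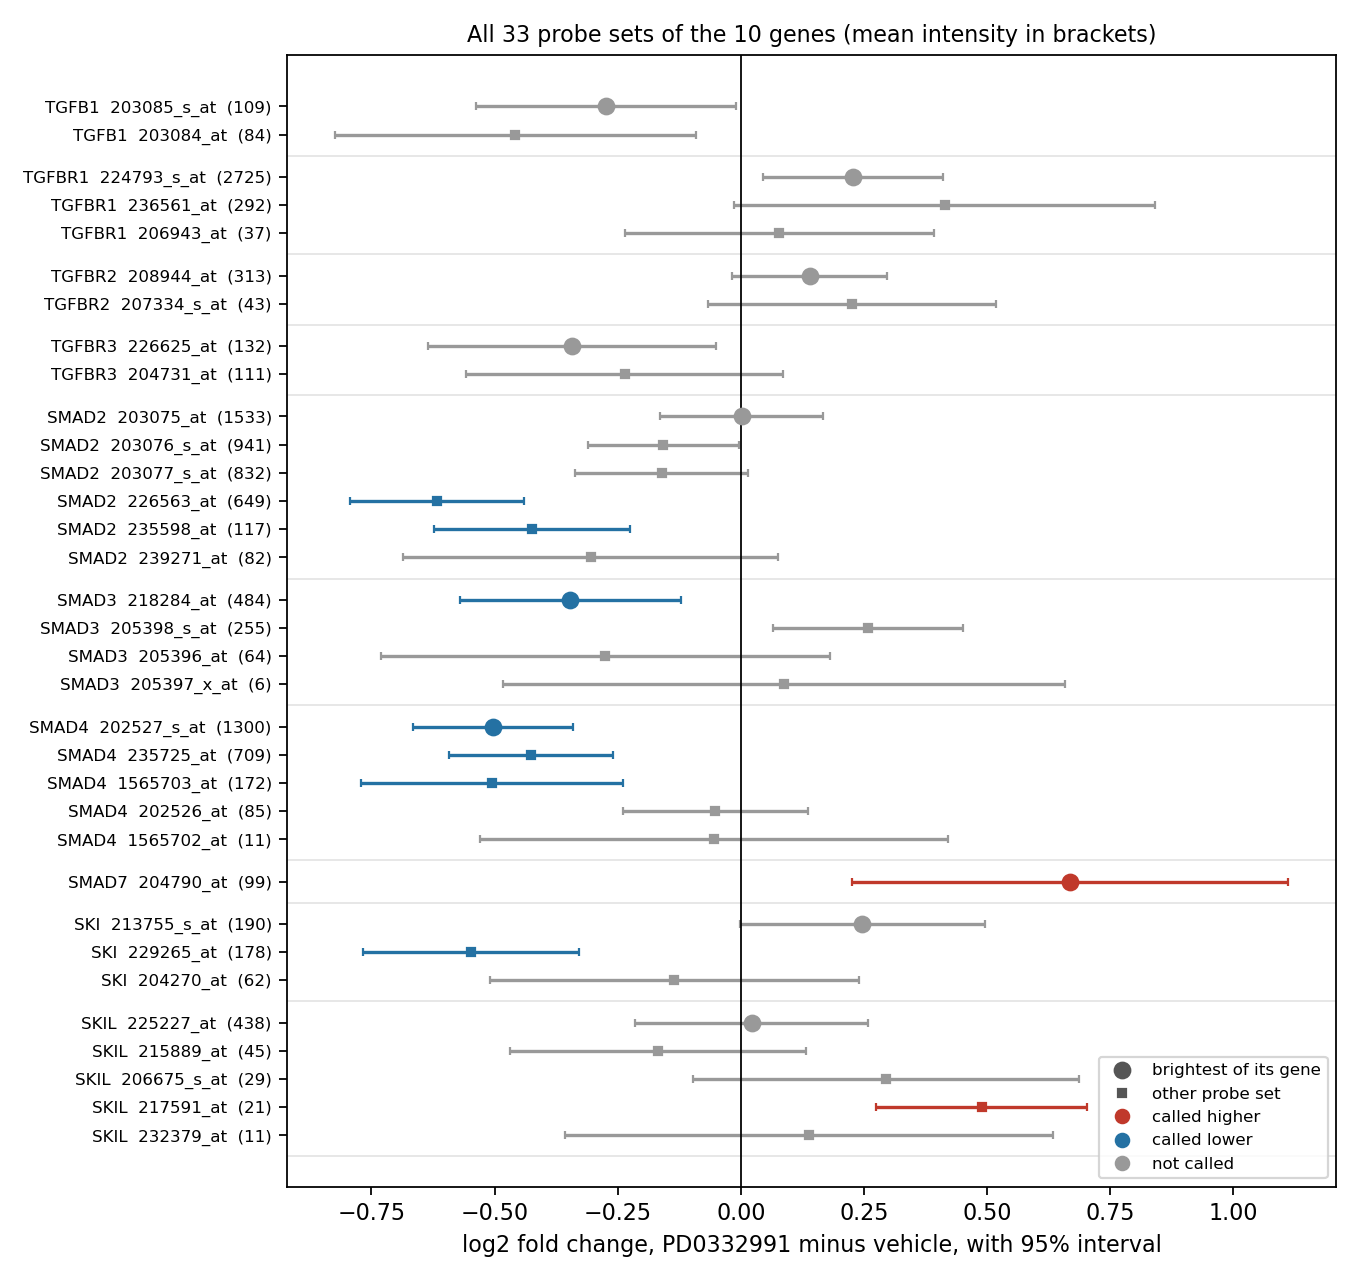
Log2 fold change (PD0332991 minus vehicle) of all 33 probe sets with its 95% interval from the fit of all probe sets, grouped by gene with the mean intensity in brackets. Blue marks the 7 called lower, red the 2 called higher and grey the 24 not called. SMAD2, SMAD3, SKI and SKIL each have probe sets on both sides of 0, although the highest of SMAD2 is at 0.0015. Those of SMAD4 all lie below 0 but range from −0.51 to −0.05.

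SMAD7 (chr18:48919853-48950965), the feedback inhibitor gene, had 1 probe set, 204790_at, and was the member with the largest change that passed. It read 61.5, 58.5 and 102 with vehicle and 119.7, 134 and 118 with PD0332991. Vehicle replicate 3 stood well above the other vehicle arrays and still below all treated ones. The mean went from 73.9 ± 24.0 to 124 ± 8.98 (SD, 3 arrays each), a log2 change of 0.67 (SE 0.18, limma adjusted p = 0.0384). Without vehicle replicate 3 it was 0.88 (limma adjusted p = 0.00178), and without any 1 of the other 5 arrays it lay between 0.55 and 0.70 and did not pass (adjusted p 0.0867 to 0.12). With a pseudocount of 1 it was 0.78 (limma adjusted p = 0.0612). Of the 9886 other genes above the median intensity, those whose centred log2 values over the 6 arrays lay closest to SMAD7 were SVOPL, ZDHHC24, QSOX1, MAP6D1 and UEVLD, with root mean square differences of 0.08, 0.08, 0.08, 0.09 and 0.09. Like SMAD7, each was higher with PD0332991 and read highest among the vehicle arrays on replicate 3, the array with the highest median (54.3). They were chosen for this likeness, and its source was not tested.

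The corepressor gene SKI (chr1:2228319-2310213) had probe sets with opposite signs. On the brightest, 213755_s_at, vehicle arrays read 163, 171 and 184 and treated arrays 233, 209.7 and 182. The groups overlapped through PD0332991 replicate 3, and the log2 fold change was 0.25 (SE 0.10, limma adjusted p = 0.122). On 229265_at they read 210.3, 198 and 233 against 128, 146 and 149, with no overlap and a log2 change of −0.55 (SE 0.09, limma adjusted p = 0.0079). The third, 204270_at, was at −0.13 (limma adjusted p = 0.625).

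SKIL (chr3:170357715-170396849), which encodes the related corepressor SnoN and is itself a TGF-beta target, read 412, 445 and 444 with vehicle and 496, 437 and 395 with PD0332991 on probe set 225227_at. The treated arrays spread around the vehicle ones, with a log2 change of 0.02 (95% interval −0.21 to 0.25, limma adjusted p = 0.894). Its probe set 217591_at was higher, with 16.03, 14.3 and 14.5 against 22.8, 30.3 and 29.4, at 0.49 (SE 0.09, limma adjusted p = 0.0112), but these intensities lie near the pseudocount, and with a pseudocount of 1 or 64 the log2 fold change was 0.83 or 0.21. The other 3 were at −0.17, 0.29 and 0.14 and did not pass (limma adjusted p 0.427, 0.280 and 0.714).

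The disagreement within SMAD2, SMAD3 and SKI was measured as the log2 difference between 2 probe sets on the same array, for pairs chosen after their values were seen. Each pair set the brightest probe set against the one of most different change, among those above the median intensity of all genes. The SKIL probe sets differed as well, from −0.17 to 0.49, but were not paired, and only the brightest lay above that median. For SMAD2, 203075_at minus 226563_at went from 0.94 ± 0.01 to 1.56 ± 0.13 (SD, n = 3 each). For SMAD3, 218284_at minus 205398_s_at went from 1.18 ± 0.20 to 0.58 ± 0.13 (SD, n = 3 each). For SKI, 213755_s_at minus 229265_at went from −0.29 ± 0.08 to 0.51 ± 0.26 (SD, n = 3 each). The groups did not overlap in any of the 3 pairs, which is given as a description with no test, since the pairs were chosen for their difference. Which transcript forms each probe set reports was not analysed here.

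**Figure D3:**
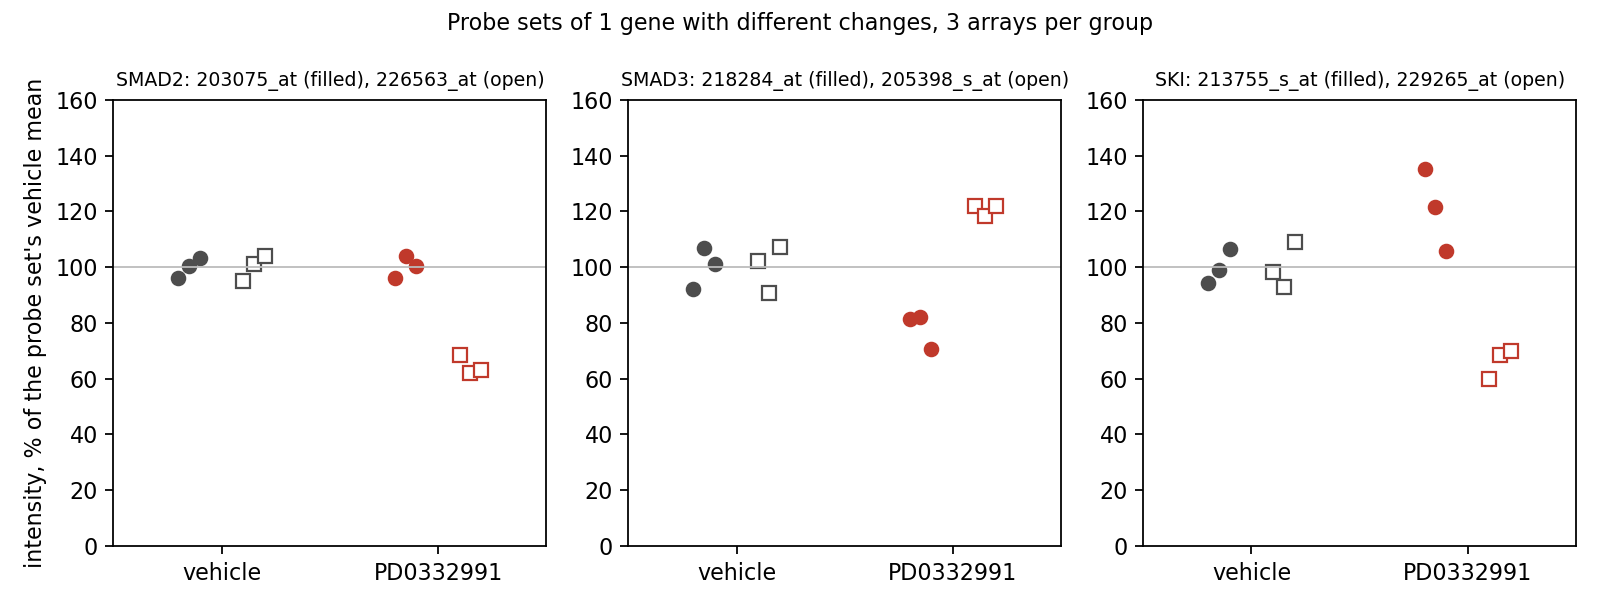
Intensity as a percent of each probe set's own vehicle mean for the pairs of SMAD2, SMAD3 and SKI, with filled circles for the first and open squares for the second probe set, 3 arrays per group. With PD0332991 the means were 100.1% and 64.6% for SMAD2, 78.1% and 120.6% for SMAD3, and 120.8% and 66.0% for SKI.

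Around these genes, the other measured genes of the pathway went both ways. Of 79 listed genes in 5 groups by role, 75 were measured, and 16 were higher, 6 lower and 53 not called, with a median log2 fold change of 0.03, against 15.6% higher and 13.6% lower among all genes. Without vehicle replicate 1 or without vehicle replicate 2, 9 were higher. Calls fell over all genes too, where the higher ones numbered 2170 and 2199 in these settings, against 3088 with all arrays.

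Among 24 genes of other ligands, latency and activation, 3 were higher and none lower by limma, against 15.6% and 13.6% of all genes. At an unadjusted p under 0.05, 5 of the 24 were higher and 1 lower. The median log2 fold change of the 24 was 0.03. MSTN, which encodes myostatin, rose from 44.8 ± 4.28 to 135 ± 14.8 (SD, 3 arrays each), a log2 fold change of 1.31 (0.87 with a pseudocount of 64). BMP4, a bone morphogenetic protein gene, rose from 139 ± 6.08 to 285 ± 3.96 (SD, 3 arrays each), at 0.96 (SE 0.06, limma adjusted p = 0.000116). The higher count was 1 with _x_at and _s_at probe sets left out, which removes BMP4, whose single probe set is of that kind. The lower count was 1 among brighter genes, at an adjusted p under 0.1 and for the mean of probe sets. LTBP3, which encodes a latent TGF-beta binding protein, was at 0.36 (limma adjusted p = 0.0306) and lost its call without vehicle replicate 1, 2 or 3 (adjusted p 0.0782, 0.101 and 0.0554) or PD0332991 replicate 1 or 2 (0.0857 and 0.0725). On its probe set that ends in neither _x_at nor _s_at LTBP3 was at 0.08 (limma adjusted p = 0.495).

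Of 11 other receptors and coreceptors, with a median of −0.06, 3 were higher and 1 lower, against 15.6% and 13.6% of all genes. ACVR1 and ACVR1B, type I receptor genes for BMP and activin ligands, rose by 0.54 and 0.51 on the log2 scale (limma adjusted p = 0.00425 and 0.00264), and the mean of the 6 ACVR1B probe sets was 0.30. The type II receptor genes differed in sign: BMPR2 was at 0.27 (limma adjusted p = 0.0344) and ACVR2B fell by 0.70, from 360.5 ± 5.85 to 217 ± 6.16 (SD, n = 3 each). BMPR2 lost its call without vehicle replicate 1 or 2 (adjusted p 0.107 and 0.0995) or PD0332991 replicate 1, 2 or 3 (0.0895, 0.0773 and 0.0631). The mean of the 3 ACVR2B probe sets was −0.34, still past the threshold, and without PD0332991 replicate 3 the lower genes of this list numbered 2.

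Among the 4 other SMAD genes, SMAD5, a BMP-branch transducer, fell by 0.33 (limma adjusted p = 0.00999), and its mean over 5 probe sets was −0.18 (limma adjusted p = 0.227). SMAD6, the second inhibitory SMAD gene, was at 0.29 (limma adjusted p = 0.0407) and lost its call without vehicle replicate 1, 2 or 3 (adjusted p 0.124, 0.0934 and 0.0563) or PD0332991 replicate 2 or 3 (0.0988 and 0.114). With median centring SMAD6 had an adjusted p of 0.0503 by limma, and its mean over 4 probe sets was 0.08 (limma adjusted p = 0.654). Those 4 had mean intensities of 811, 60.6, 15.8 and 13.9, and both 15.8 and 13.9 lie below the pseudocount of 16. SMAD1 and SMAD9 were at −0.15 and −0.34 and did not pass.

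Of 20 SMAD partners and regulators, with a median of 0.09, 5 were higher and 2 lower, against 15.6% and 13.6% of all genes. PMEPA1, a TGF-beta-induced gene whose product holds SMAD2 and SMAD3 away from the receptor, rose by 0.40 and RNF111, which encodes the ubiquitin ligase Arkadia that degrades SMAD7 and SnoN, rose by 0.35 (limma adjusted p = 0.00334 and 0.00401). PPM1A, which encodes a phosphatase of SMAD2 and SMAD3, fell from 1421 ± 19.1 to 806 ± 25.6 (SD, 3 arrays each), a log2 change of −0.81 (SE 0.05). Of its 5 other probe sets 1 was lower, and the mean of all was −0.36. SNW1, which encodes the coactivator SKIP, was at −0.45 (limma adjusted p = 0.00463), and its second probe set was lower too, at −0.43. The higher genes of this list numbered 2 without vehicle replicate 1 or vehicle replicate 2, and 3 without PD0332991 replicate 2 or PD0332991 replicate 3. They numbered 2 at an adjusted p under 0.01 and 3 with _x_at and _s_at probe sets left out.

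**Figure D4:**
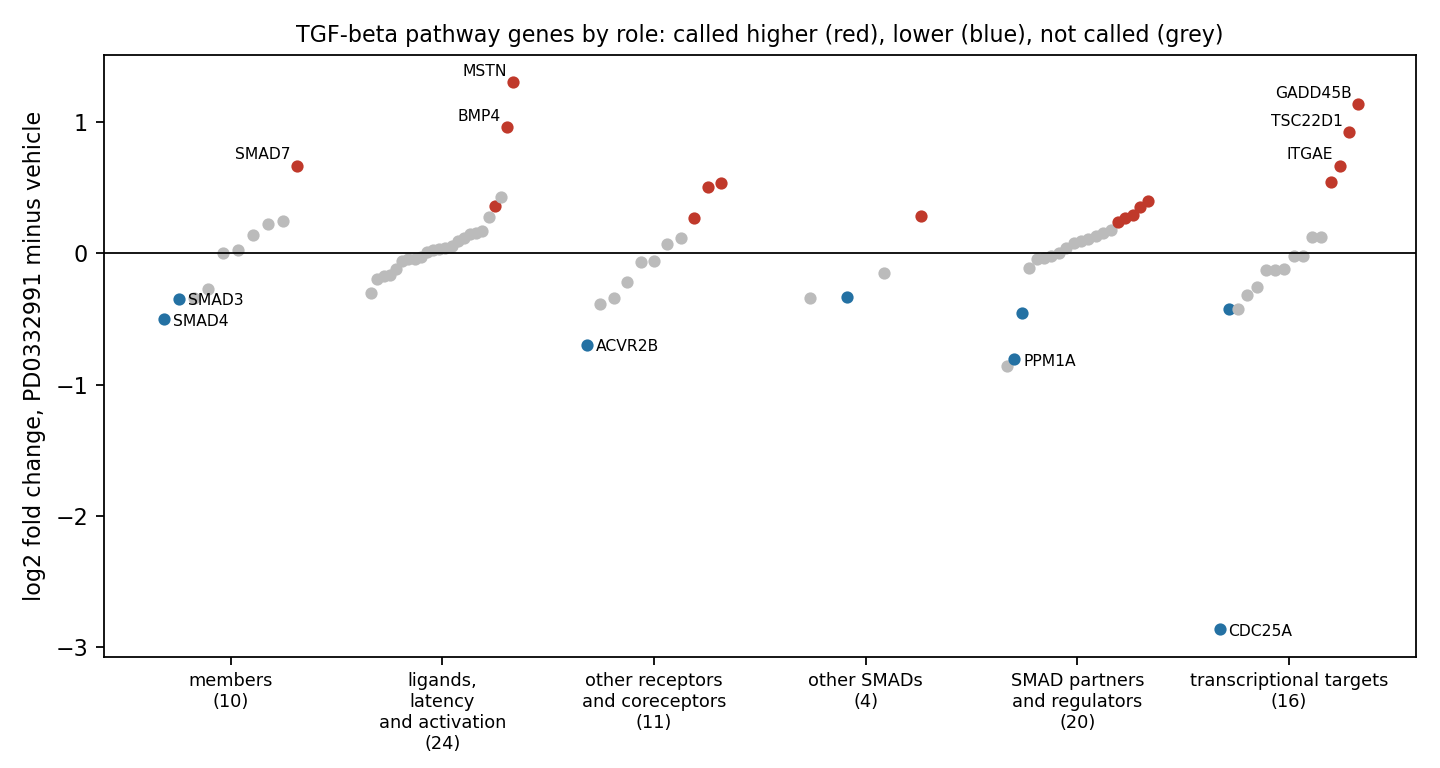
Log2 fold change (PD0332991 minus vehicle) of the 10 members and of the 75 other measured pathway genes, sorted within each role, with the number of genes in brackets. Red points were called higher, blue lower and grey not called, and each role except the ligand group holds called genes of both signs.

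Of 16 measured transcriptional targets, with a median of −0.07, 4 were higher and 2 lower, against 15.6% and 13.6% of all genes. The list mixes genes that TGF-beta induces with genes that it represses, so these counts are not a measure of pathway activity. ITGAE, which encodes the integrin CD103 induced by TGF-beta in T cells, rose from 3128 ± 219 to 4985 ± 331 (SD, 3 arrays each), a log2 change of 0.67 (SE 0.08, limma adjusted p = 0.00168). GADD45B, a stress-response gene, rose by 1.14 and on 3 other probe sets too, with 0.30 on the one that ends in neither _x_at nor _s_at, and TSC22D1 rose by 0.92 (0.57 as the mean of its probe sets). CDC25A, a cell-cycle phosphatase gene that TGF-beta represses, fell by 2.87 and on its other probe sets to log2 fold changes of −2.52 and −0.94 (limma adjusted p = 0.000127 and 0.00453). CDKN1A, an inhibitor gene that TGF-beta induces in many cell types, was at −0.43 (limma adjusted p = 0.0204), and its call was lost without vehicle replicate 1, 2 or 3 (adjusted p 0.0503, 0.0649 and 0.058) or PD0332991 replicate 1 or 3 (0.0554 and 0.0705). In this list 1 gene was lower without vehicle replicate 2, without vehicle replicate 3, and without either PD0332991 replicate 1 or 3.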

How the data were processed

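Per the labels' protocols, biotin-labelled copies of total RNA were hybridised to 6 arrays (3 with vehicle). Each deposited value is the linear intensity of a probe set (0.56 to 16362), summarised and scaled by the authors with a method not given in the sources used here. Scaling makes each value relative to the rest of its array. The 62 control probe sets were left out, and no further normalization or filter was applied. The platform annotation gave 1 symbol for 41091 of 54613 probe sets, several for 1801 and none for 11721, and symbols were updated by gene ID through RefSeq (GRCh38.p14), 54 without a match. A gene was represented by its brightest probe set over the 6 arrays.

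The comparison used limma 3.58.1 (R 4.3.3; two-sided, by lmFit and then eBayes) on log2(intensity + 16), which understates the change of dim genes, once over 19775 genes and once over 54613 probe sets, with Benjamini-Hochberg adjustment over each. Every adjusted p is from limma, for the gene fit where a brightest probe set is described and the probe set fit otherwise. The exceptions are values for the mean of probe sets and those with _x_at and _s_at probe sets left out. These come from gene fits in which genes were represented that way, as does the adjusted p of the LTBP3 probe set that ends in neither. The code was tested on simulated data. All 10 members are named. In each pathway list the text names up to 4 called genes with the largest change and up to 2 called against the majority. For the called member with the largest change it names the 5 genes of closest pattern. The members and lists were chosen with earlier results of these data known. The number of arrays limits the precision. Alternatives were a replicate block, each array left out, other normalizations (quantile, median or 75th percentile centring), brighter genes only, robust eBayes, eBayes with an intensity trend, weighting of arrays, a pseudocount of 1 or 64, thresholds of 0.01 and 0.1, the mean of probe sets, and leaving out probe sets ending in _x_at or _s_at. Figures were drawn with matplotlib 3.10.9.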

Additional observations from a re-analysis of the deposited data

How the results depend on the processing

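The direction and call of SMAD4 held under all 18 alternatives, from −0.54 to −0.31, and the fall of SMAD2 probe set 226563_at and SKI probe set 229265_at under all 16 run on probe sets. The count of members called higher, 1, was 0 with a pseudocount of 1 and at an adjusted p under 0.01, 2 with quantile normalization, 75th percentile centring, an eBayes trend, array weights, a pseudocount of 64, the mean of probe sets or an adjusted p under 0.1, 4 among brighter genes (where 62.3% of genes passed), and 0 to 2 with 1 array left out. The count called lower, 2, was 3 with quantile normalization, median centring, array weights or an adjusted p under 0.1. It was also 3 with _x_at and _s_at probe sets left out, 4 among brighter genes and 1 at an adjusted p under 0.01. With 1 array left out it was 1 to 2. TGFBR3 was lower with quantile normalization (limma adjusted p = 0.0416) and median centring (0.0424). TGFB1 was lower with array weights (limma adjusted p = 0.0268), and SKI with _x_at and _s_at probe sets left out (0.00605). Of member probe sets, 2 of them higher, 4 were higher with quantile normalization, an eBayes trend, array weights, a pseudocount of 64 or an adjusted p under 0.1, 1 with robust eBayes or a pseudocount of 1, and 0 at an adjusted p under 0.01, where 4 were lower. With 1 array left out 1 to 2 were higher and 5 to 6 lower. Of other pathway genes, 9 were higher at an adjusted p under 0.01, 10 with _x_at and _s_at probe sets left out, and 9 to 14 with 1 array left out. Over all genes, 21.5% to 28.8% passed with 1 array left out, against 29.3% with all arrays.

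Signs turned for values near 0, for genes with disagreeing probe sets and for probe sets that were not called. With 1 array left out, SMAD2 on its brightest probe set (203075_at) ranged from −0.027 to 0.031 in both fits, with negative values where vehicle replicate 1 or PD0332991 replicate 2 or 3 was the one left out, and SKIL (225227_at) from −0.060 to 0.099 in both, negative without vehicle replicate 1 or PD0332991 replicate 1. SMAD2 was at −0.010 with median centring in both fits and −0.28 as the mean of probe sets. SKI was at −0.15 as the mean of probe sets and −0.55 with _x_at and _s_at probe sets left out, which put SMAD6 at −0.036. With array weights SKIL was at −0.015 among genes and -0.0032 among probe sets. With 1 array left out, other probe sets, none of them called, ranged from −0.046 to 0.16 (206943_at, negative without vehicle replicate 2), −0.097 to 0.30 (205397_x_at, negative without vehicle replicate 1 or PD0332991 replicate 2), −0.18 to 0.15 (1565702_at, positive without replicate 3 of either group, and 0.034 with array weights), −0.24 to 0.029 (204270_at, positive without vehicle replicate 3) and −0.097 to 0.26 (232379_at, negative without PD0332991 replicate 1). The cause was not tested.

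Replicate numbers were not taken to pair the arrays: same-numbered arrays deviated from their group means with correlations of 0.127, 0.085 and 0.086 over brighter genes, although all 6 arrays correlated best with their own number, a hint from the data and not the design. With the replicate number as a block, 0 members were higher and 1 lower, 1 member probe set was higher, and SMAD4 passed (limma adjusted p = 0.0124). The block ended the calls of SMAD3 (0.0622) and SMAD7 (0.0714), also in the fit of all probe sets (0.0852 and 0.0841), and those of LTBP3 (0.0823), BMPR2 (0.101) and SMAD4 probe set 1565703_at (0.0538), brought TGFB1 probe set 203084_at past the threshold (0.0448), all limma adjusted p, and left 2 SMAD partners and regulators higher. It changed no other call of a member, member probe set or named gene.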
